A study of Mus musculus with 29 samples.

Results

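Atf4 and 9 of its reported target genes (Ddit3, Asns, Trib3, Chac1, Psat1, Phgdh, Shmt2, Mthfd2 and Sesn2) were followed in mouse prefrontal cortex by bulk RNA sequencing. The 10 genes were chosen by name as the transcriptional output of the integrated stress response, and each matched 1 of the 18240 genes in the deposited table. The mice carried 1 K228E allele of Tbr1 (HT) or were wild type (WT), were of strain C57BL/6J and were sampled at postnatal day 40. The product of Tbr1 is a T-box factor that shapes cortical projection neurons, fluoxetine is a serotonin reuptake inhibitor and lithium is a mood stabiliser. The groups were WT with vehicle (4 females, 4 males), HT with vehicle (3 females, 3 males), HT with fluoxetine (4 females, 4 males) and HT with lithium (3 females, 4 males). No group combined a drug with the WT genotype. Dose, route and length of treatment are not given in the labels, and the labels do not say whether animals were pooled or came from shared litters, so p-values measure the spread between these 29 libraries.

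The integrated stress response begins when 1 of several kinases phosphorylates the translation factor eIF2 during amino acid shortage, protein misfolding in the endoplasmic reticulum, haem shortage or viral infection. Most translation then falls, while the Atf4 mRNA, whose upstream reading frames normally hold its translation back, is translated more. The ATF4 protein, a basic leucine zipper factor, pairs with C/EBP and related factors and switches on genes for amino acid synthesis and transport, redox balance and, in prolonged stress, cell death. In brain, serine made by the pathway that includes PHGDH and PSAT1 comes largely from astrocytes and feeds glycine, D-serine and lipid synthesis. The libraries measure mRNA. Phosphorylated eIF2 and ATF4 protein were not measured.

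ATF4 with its C/EBP partner is known to bind a composite element with the core TGATGNAA. This core was searched on both strands of the RefSeq promoter windows of the 10 genes (250 bases before to 50 bases after a start, build GRCm38.p6). It was found in 3 of 10 genes, Chac1, Asns and Trib3, against 2.84% of 12630 tested genes with a window and 4.51% of all 27025 genes with one. Among the other ATF4 targets described below, 6 of 24 with a window held it, and among genes of the ATF6 and XBP1 branches 0 of 17 did. The stretches around the 3 matches are shown on the strand of each gene, with the core in capitals. Read on the opposite strand, it appears as TTNCATCA. The starts named here are those of RefSeq, while the gene coordinates given further below are those of the GENCODE annotation. By the GENCODE coordinates the Asns core lies inside the gene and the Trib3 core lies before it. The downstream end of the Trib3 window was in no annotated transcript of Trib3, unlike that of the other windows.
Chac1 (chr2:119351003-119351102, plus strand, core beginning 193 bases before the start): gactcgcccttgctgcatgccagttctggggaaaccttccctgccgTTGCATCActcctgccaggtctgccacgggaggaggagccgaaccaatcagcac
Asns (chr6:7693210-7693278, minus strand, core beginning 23 bases before the start): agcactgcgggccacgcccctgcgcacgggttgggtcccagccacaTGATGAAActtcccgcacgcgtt
Trib3 (chr2:152344028-152344057, minus strand, core beginning 14 bases after the start): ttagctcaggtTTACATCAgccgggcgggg
A match is a description of the letters in a window and not a shown binding site.

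The libraries held 22.81 M to 31.71 M reads. Pan-neuronal Snap25 and cortical Slc17a7 were present in all 29 libraries, with normalised read counts of at least 56920 and 32390. Normalised read counts are reads divided by 1 size factor per library. Tbr1 itself averaged 2866 ± 445 (SD, n = 8) in WT and 4067 ± 392 (SD, n = 6) in HT with vehicle, a 1.43-fold higher level (adjusted p = 0.0164, limma). The lowest HT vehicle library lay at 3728 and the highest WT library at 3432, so these groups did not overlap. Markers of neighbouring tissue varied: 10 of 29 libraries had a striatal or olfactory marker mean that exceeded the median library by over 1 on the log2 scale. These were 3 of 8 WT, 1 of 6 HT vehicle, 4 of 8 HT fluoxetine and 2 of 7 HT lithium libraries. In bulk tissue, fewer cells of a type and less RNA per cell cannot be told apart.

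Per kilobase of exon sequence, the 10 genes spanned a wide range of levels. Atf4 was the highest, with a mean of 1379 ± 65.4 normalised reads per kilobase (SD over 29 libraries), which placed it at percentile 95.4 of the 17881 tested genes. Asns, the enzyme that makes asparagine, followed at 822 ± 60.7, and Psat1 and Phgdh, both enzymes of serine synthesis, at 562 ± 27.6 and 529 ± 38.2. Psat1 and Phgdh overlapped in their spread over libraries, from 513 to 616 and from 427 to 594. Ddit3 lay at 241 ± 24.3, Shmt2 at 186 ± 11.2, Sesn2 at 116 ± 5.52, Chac1 at 114.8 ± 10.48 and Mthfd2 at 46.4 ± 5.16. Sesn2 and Chac1 did not differ beyond their spread. Trib3, at 4.76 ± 1.88, was at percentile 7.72 and had only 3 to 18 reads per library. It passed the filter on low values because 13 of 29 libraries reached a normalised read count of 10, and the other 9 genes passed in all 29.

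None of the 10 genes differed between genotypes, between drugs or between a drug and vehicle once p-values were adjusted over all 17881 genes tested. For HT minus WT with vehicle 0 of 10 were called, where 0.207% of all tested genes were. For fluoxetine minus vehicle in HT 0 of 10 were called (background 0.0%), and for lithium minus vehicle in HT 0 of 10 (background 0.0%). Lithium minus fluoxetine in HT also gave 0 of 10 (background 0.0%). For HT fluoxetine minus WT vehicle the count was 0 of 10 (background 0.19%), and for HT lithium minus WT vehicle 0 of 10 (background 1.9%). The test was limma with Benjamini-Hochberg adjustment and a threshold of 0.05. On reads recovered from the values, edgeR and DESeq2 also called 0 of 10 in each of these 6 comparisons. The all-gene counts of the edgeR and DESeq2 fits are not given here, so their 0 of 10 has no background beside it. All-gene calls over the other settings ran from 0 to 219 for HT minus WT with vehicle. For HT lithium minus WT vehicle they ran from 16 to 573. Without the 10 libraries high in striatal or olfactory markers, limma again called 0 of 10 in each. That fit called no gene at all for HT minus WT with vehicle, so no other outcome was possible there. For HT lithium minus WT vehicle it called 16 genes in all, so 0 of 10 says little about the members.

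Counted at an unadjusted p under 0.05, the members gave 0, 1, 0, 0, 2 and 1 of 10 in the same order, where the background was 12.3%, 7.81%, 11.4%, 3.5%, 9.26% and 18.6% of all tested genes. In none of the 6 comparisons were the 2 groups of any member free of overlap, where 0.336%, 0.0615%, 0.542%, 0.0447%, 0.0615% and 0.442% of all tested genes were. The median log2 difference of the 10 genes lay between -0.01 and 0.03 in the 6 comparisons, and that of all tested genes between -0.0046 and 0.0010. Leaving out Trib3 for its low reads, the outer ends of the 95% intervals of the other 9 genes are given. Each interval holds for 1 gene alone and was not adjusted for the number of genes. For genotype they reached from 0.858-fold to 1.18-fold, for fluoxetine minus vehicle from 0.823-fold to 1.16-fold and for lithium minus vehicle from 0.868-fold to 1.22-fold.

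**Figure D1:**
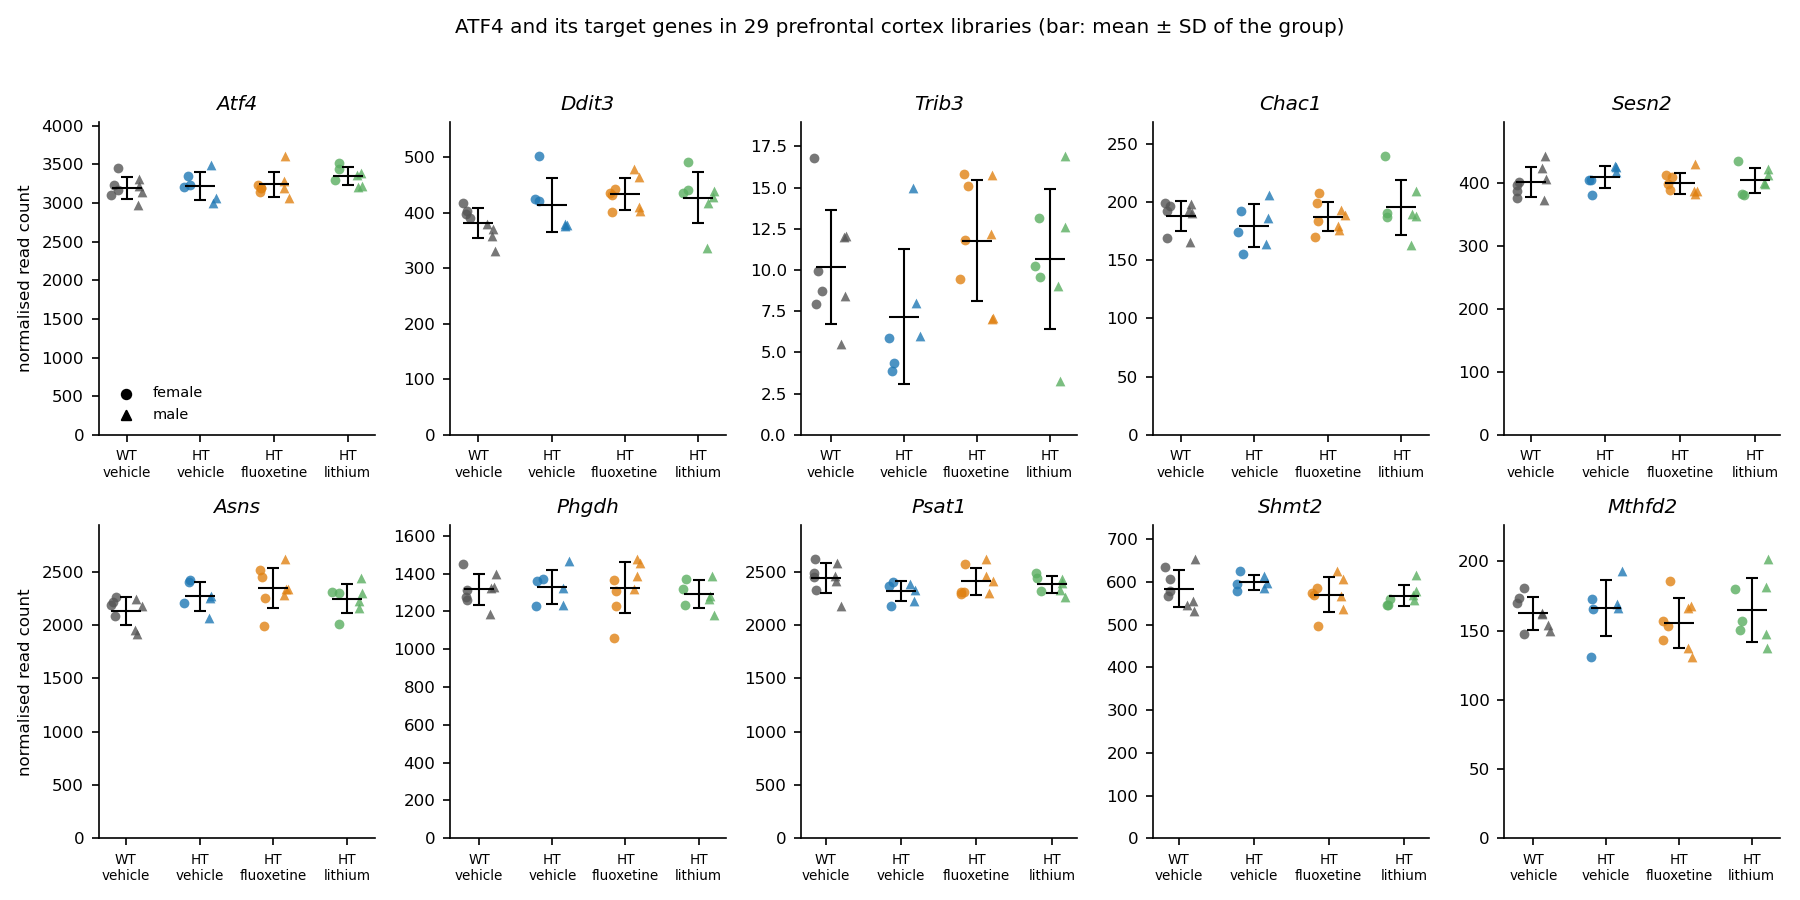
Normalised read count (vertical axes, starting at 0) of the 10 genes in each of 29 libraries, by genotype and treatment; circles are females, triangles are males, and bars give the mean ± SD of a group. The groups overlap in each panel, and Trib3, between 3.24 and 17.0, spreads most for its level.

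Atf4 (ENSMUSG00000042406, chr15:80255184-80257541, plus strand, GRCm38), the transcription factor at the head of the response, differed little between the groups. Its lowest, median and highest normalised read counts were 2978, 3191 and 3448 in WT vehicle and 2995, 3219 and 3495 in HT vehicle. In HT fluoxetine they were 3069, 3195 and 3615, and in HT lithium 3203, 3368 and 3517. The order of the means ran from WT vehicle (3200 ± 141, SD, n = 8) through HT vehicle (3223 ± 184, n = 6) and HT fluoxetine (3241 ± 163, n = 8) to HT lithium (3349 ± 113, n = 7). Each step in that order was smaller than 1 SD, and all 4 groups overlapped. The log2 difference of HT vehicle minus WT was 0.01 ± 0.04 (SE; 95% interval 0.954-fold to 1.06-fold), and that of HT lithium minus WT was 0.07 ± 0.04 (adjusted p = 0.296, limma).

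Ddit3 (ENSMUSG00000025408, chr10:127290774-127296288, plus strand) encodes CHOP, a basic leucine zipper factor induced by ATF4 and linked to cell death in prolonged stress. Its lowest, median and highest values were 332, 385 and 418 in WT vehicle, 376, 400 and 503 in HT vehicle, 402, 434 and 478 in HT mice given fluoxetine and 337, 435 and 491 in those given lithium. The WT libraries were the lowest group by median, while its range overlapped with that of each HT group. Against WT vehicle, the log2 difference was 0.11 ± 0.06 (SE) for HT vehicle, 0.19 ± 0.05 for HT fluoxetine and 0.17 ± 0.06 for HT lithium. The corresponding adjusted p-values were 0.437, 0.199 and 0.106 (limma), so none passed. These differences share the WT libraries and are not independent of each other. The lowest HT lithium library was male 2, at 337. Without that library the HT lithium minus WT difference was 0.21 with an adjusted p of 0.0248. This was the only value past the threshold for any of the 10 genes in the 41 other settings. Over all of those settings this adjusted p ran from 0.0248 to 0.237. The count over all tested genes in the fit without that library is not given here. Fits that left out a single library called 85 to 722 genes in all for this comparison, against 340 in the main fit. The pass of Ddit3 was thus not separated from a change in calls over all genes. Between treatments within HT, Ddit3 differed by 0.07 ± 0.06 for fluoxetine and 0.06 ± 0.06 for lithium against vehicle.

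**Figure D2:**
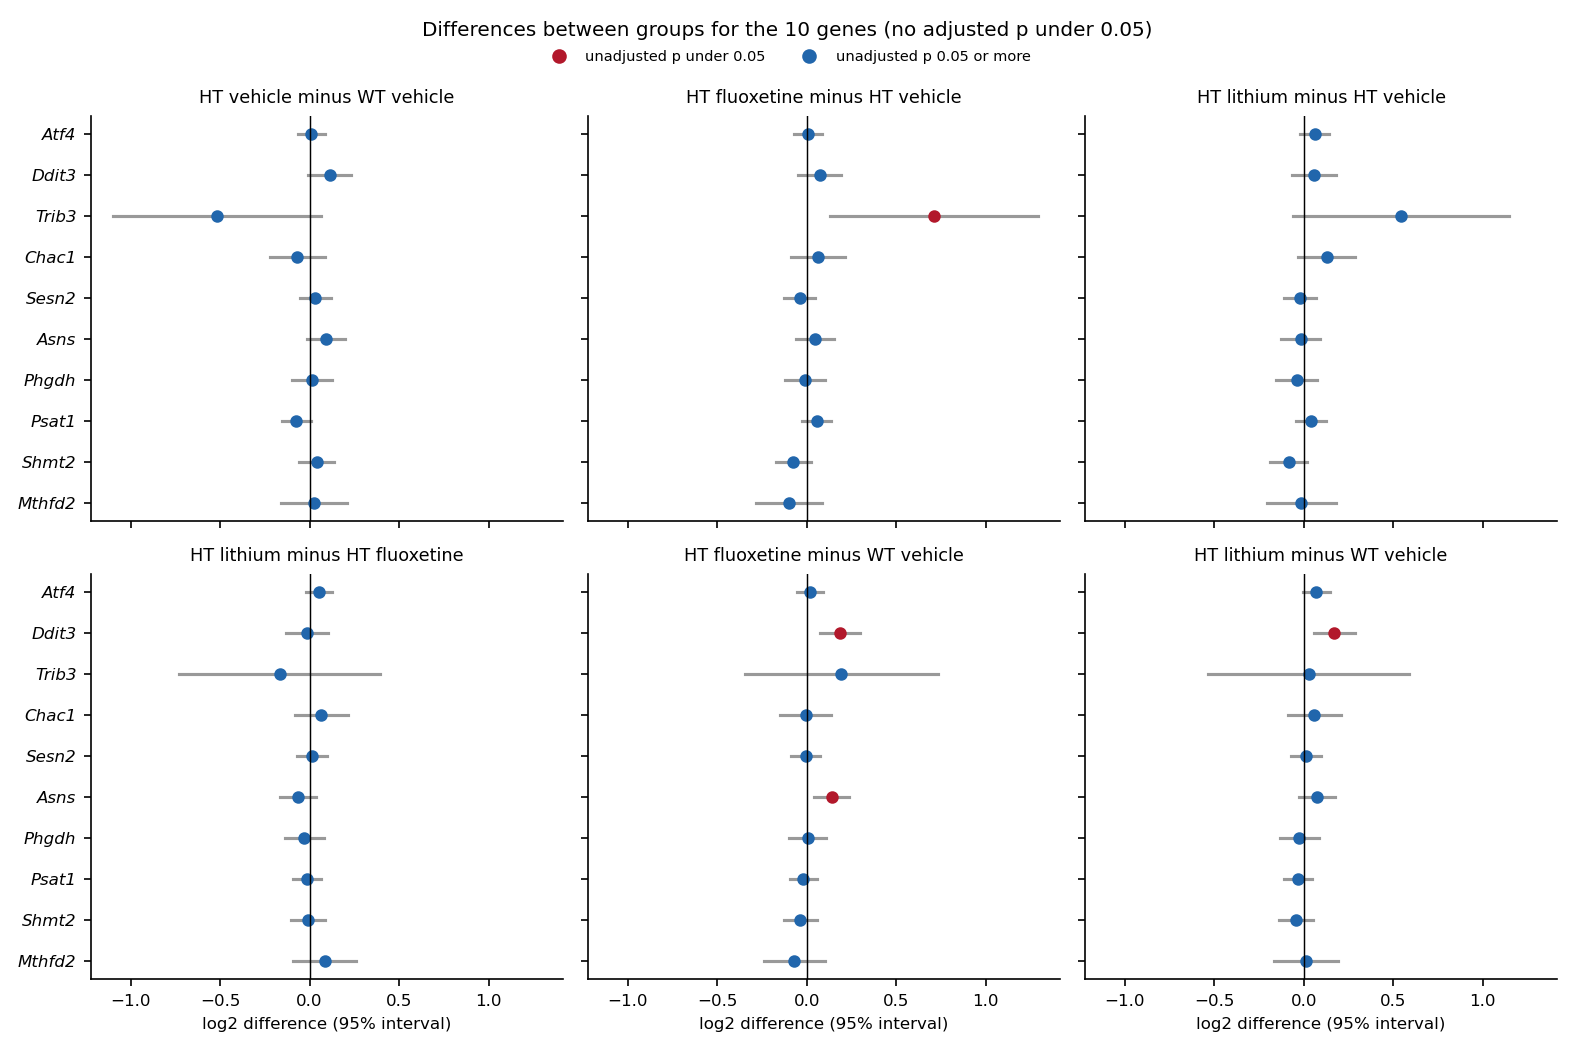
Log2 difference on the log2(value + 1) scale (horizontal axis) with its 95% interval for the 10 genes in the 6 comparisons between groups; red points have an unadjusted p under 0.05. Only Trib3 for fluoxetine minus vehicle, Ddit3 and Asns for HT fluoxetine minus WT, and Ddit3 for HT lithium minus WT are red, and no adjusted p is under 0.05.

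Trib3 (ENSMUSG00000032715, chr2:152337422-152344032, minus strand), a pseudokinase that ATF4 induces and that restrains ATF4 and CHOP in turn, had the largest differences and the fewest reads. In WT vehicle the lowest, median and highest normalised counts were 5.53, 9.35 and 16.8, and in HT vehicle 3.85, 5.93 and 14.95. In HT fluoxetine they were 7.01, 12.01 and 15.8, and in HT lithium 3.24, 10.2 and 17.0. HT vehicle was the lowest group by mean (7.17 ± 4.08, SD, n = 6) and HT fluoxetine the highest (11.8 ± 3.65, n = 8), with overlapping ranges. The log2 difference was -0.52 ± 0.28 (SE) for HT vehicle minus WT, 0.71 ± 0.28 for fluoxetine minus vehicle and 0.54 ± 0.29 for lithium minus vehicle. Adjusted p-values were 0.474, 0.552 and 0.479 (limma). All 3 rest on the same 6 HT vehicle libraries, and at these values the pseudocount of 1 draws differences toward 0.

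Within females the low Trib3 values of HT vehicle stood apart from the other groups. The normalised counts were 5.87, 3.85 and 4.35 in the HT vehicle females, from 4 or 5 reads each, against 8.74, 9.96, 7.97 and 16.8 in the WT females. Fluoxetine females had 15.1, 15.8, 11.8 and 9.46, and lithium females 13.2, 10.2 and 9.56. The HT vehicle females thus overlapped with none of the other 3 female groups. In females the log2 difference was -1.02 ± 0.40 (SE) for HT vehicle minus WT (adjusted p = 0.544, limma), 1.29 ± 0.40 for fluoxetine minus vehicle (adjusted p = 0.20) and 1.08 ± 0.43 for lithium minus vehicle (adjusted p = 0.996). HT vehicle males had 5.99, 14.95 and 8.01 and overlapped with the other males. The difference between the sexes was not called for genotype (adjusted p = 0.847), fluoxetine (0.368) or lithium (0.9997) by limma's interaction term. In females 8.71%, 9.13% and 9.71% of all tested genes did not overlap for genotype, fluoxetine and lithium. Of the members, 2, 1 and 2 of 10 did not overlap in these, being Ddit3 and Trib3, Trib3, and Trib3 and Shmt2.

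Chac1 (ENSMUSG00000027313, chr2:119351229-119354381, plus strand), a gamma-glutamyl cyclotransferase that degrades glutathione, is among the most inducible ATF4 targets. Its lowest, median and highest values were 166, 193 and 199 in WT vehicle and 156, 180 and 206 in HT vehicle. They were 170, 186 and 208 in HT fluoxetine and 163, 190 and 240 in HT lithium. All groups overlapped, and the highest library was lithium female 3. The log2 difference was -0.07 ± 0.07 (SE) for genotype, 0.06 ± 0.07 for fluoxetine and 0.13 ± 0.08 for lithium against vehicle (adjusted p = 0.769, 0.864 and 0.528, limma).

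Sesn2 (ENSMUSG00000028893, chr4:132492032-132510501, minus strand), whose protein restrains mTORC1 when leucine is scarce, had among the narrowest spreads, with a coefficient of variation of 4.75% over 29 libraries. Group means were 401 ± 23.9 (SD, n = 8) in WT vehicle, 410 ± 17.5 (n = 6) in HT vehicle, 399 ± 16.8 (n = 8) in HT mice given fluoxetine and 405 ± 19.8 (n = 7) in those given lithium. They differed by less than the spread within any of these groups. Log2 differences in the 6 comparisons lay between -0.04 and 0.03.

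Asns (ENSMUSG00000029752, chr6:7675169-7693254, minus strand) has a match to the core in its RefSeq window, shown above, and is a classical amino acid response gene. In WT vehicle its lowest, median and highest values were 1914, 2187 and 2261, and in HT vehicle 2063, 2261 and 2425. In HT fluoxetine they were 1995, 2343 and 2620, and in HT lithium 2006, 2298 and 2443. WT vehicle had the lowest mean (2132 ± 133, SD, n = 8) and HT fluoxetine the highest (2350 ± 189, n = 8), and these 2 groups overlapped. Their log2 difference was 0.14 ± 0.05 (SE; 95% interval 1.03-fold to 1.18-fold), with an unadjusted p of 0.007 and an adjusted p of 0.309 in limma. For genotype the difference was 0.09 ± 0.05, for fluoxetine minus vehicle 0.05 ± 0.05 and for lithium minus vehicle -0.02 ± 0.05.

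The serine synthesis genes Phgdh (ENSMUSG00000053398, chr3:98313170-98339990, minus strand) and Psat1 (ENSMUSG00000024640, chr19:15904678-15947337, minus strand), whose enzymes catalyse the entry step and the transamination of the pathway, moved little. Phgdh averaged 1317 ± 82.1 (SD, n = 8) in WT vehicle, 1331 ± 89.4 (n = 6) in HT vehicle, 1326 ± 134 (n = 8) in HT mice given fluoxetine and 1291 ± 73.4 (n = 7) in those given lithium. Psat1 averaged 2441 ± 137 in WT vehicle, 2317 ± 92.7 in HT vehicle, 2409 ± 130 in HT mice given fluoxetine and 2381 ± 78.4 in those given lithium. For both genes all 4 groups overlapped. The log2 difference of genotype was 0.01 ± 0.05 (SE) for Phgdh and -0.07 ± 0.04 for Psat1 (adjusted p = 0.949 and 0.457, limma). In HT fluoxetine the lowest Phgdh value, 1060 in female 4, was also the lowest of all 29 libraries.

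Shmt2 (ENSMUSG00000025403, chr10:127517123-127522444, minus strand) and Mthfd2 (ENSMUSG00000005667, chr6:83305691-83325908, minus strand), for mitochondrial enzymes that pass the carbon of serine into the folate cycle, completed the set. Shmt2 averaged 584 ± 43.4 (SD, n = 8) in WT vehicle, 599 ± 17.7 (n = 6) in HT vehicle, 570 ± 40.1 (n = 8) in HT mice given fluoxetine and 567.7 ± 24.8 (n = 7) in those given lithium. Against HT vehicle its log2 difference was -0.07 ± 0.05 (SE) for fluoxetine and -0.08 ± 0.05 for lithium (adjusted p = 0.720 and 0.520, limma). In females, lithium libraries lay at 545, 559 and 546 and HT vehicle libraries at 594, 626 and 579, without overlap, while males overlapped. Mthfd2 averaged 163 ± 11.9 in WT and 166 ± 20.2 in HT mice given vehicle, 155 ± 18.1 with fluoxetine and 165 ± 23.1 with lithium. Its log2 differences in the 6 comparisons lay between -0.10 and 0.08, with standard errors of up to 0.09.

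**Figure D3:**
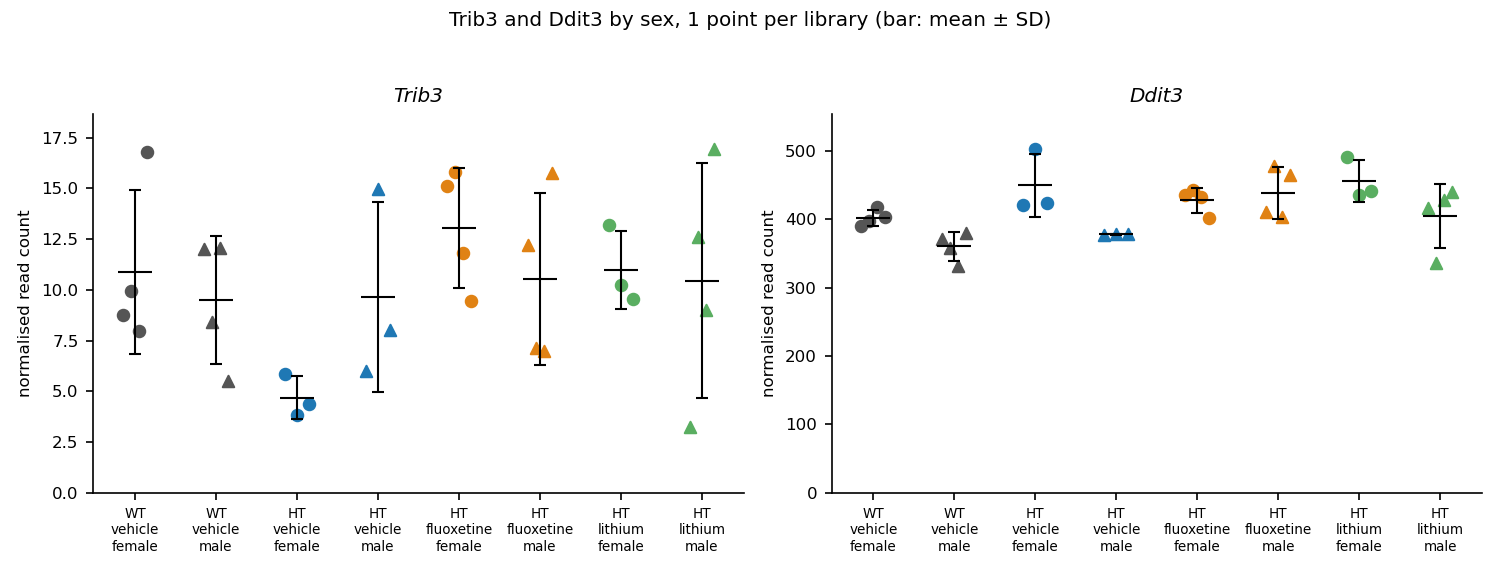
Normalised read count (vertical axes, starting at 0) of Trib3 and Ddit3 in each library of the 8 groups of genotype, treatment and sex, with the mean ± SD of each group as bars. The 3 HT vehicle females lie at 3.85 to 5.87 for Trib3, below every library of the other female groups, and the 3 HT vehicle males lie together at 376 to 379 for Ddit3.

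Separated by sex, the members again gave no call. In females and in males 0 of 10 were called for genotype, for fluoxetine and for lithium, where the background was 0.028% for fluoxetine in females and 0.0% in the other 5. The female minus male term called 0 of 10 for each, against 0.106% of all tested genes for fluoxetine and 0.0% for genotype and lithium. At an unadjusted p under 0.05, females gave 1 of 10 for genotype (background 7.45%), 1 of 10 for fluoxetine (11.9%) and 2 of 10 for lithium (4.3%), and males 0 of 10 (11.1%), 1 of 10 (10%) and 0 of 10 (10%). The female minus male term gave 0 of 10 for genotype (5.6%), 1 of 10 for fluoxetine (13.6%) and 0 of 10 for lithium (2.92%). In males, 1 of 10 members did not overlap for genotype (Mthfd2; background 6.83%), 2 of 10 for fluoxetine (Ddit3 and Asns; 8.43%) and 0 of 10 for lithium (11.4%). Averaged over the 4 groups, 0 of 10 differed between the sexes (background 0.257%). Ddit3 came closest: it averaged 402 ± 11.6 (SD, n = 4) in WT females and 360 ± 21.1 (n = 4) in WT males, and 449 ± 46.2 (n = 3) and 378 ± 1.31 (n = 3) in HT vehicle females and males. In HT lithium the means were 456 ± 30.8 (n = 3) and 405 ± 46.9 (n = 4), while in HT fluoxetine they were 428 ± 18.3 (n = 4) in females and 439 ± 37.8 (n = 4) in males. Over all groups Ddit3 was 0.14 ± 0.04 (log2, SE) higher in females, with an unadjusted p of 0.00222 and an adjusted p of 0.203 (limma). The fluoxetine difference of Ddit3 was 0.28 ± 0.12 (log2, SE) lower in females than in males, which was not called either (adjusted p = 0.288, limma).

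From library to library within groups, the 10 genes formed no single block. With the mean of each group of genotype, treatment and sex removed, 30 of 45 pairs had a positive Pearson r over the 29 libraries, with a median of 0.11 and a range from -0.39 to 0.72. Psat1 and Phgdh, which catalyse successive steps of serine synthesis, were the 1 pair past the threshold by both measures. Their r was 0.72 (permutation p = 0.00017, adjusted over 45 pairs 0.00765) and their Spearman rho 0.72 (permutation p = 0.00022, adjusted 0.0099). Without the 2 libraries farthest from the median of Psat1 the r was 0.65, and without the 10 libraries high in striatal or olfactory markers it was 0.62 with an adjusted p of 0.393 over 19 libraries. Both genes also followed the mean of the oligodendrocyte markers: r was 0.77 for Psat1 (rho 0.77, adjusted permutation p = 0.0020 and 0.0030) and 0.65 for Phgdh (rho 0.61, adjusted permutation p = 0.0337 and 0.0339), adjusted over 20 pairs in a set of relations added after seeing the data. Without the 2 farthest libraries these r values were 0.73 and 0.64. With the astrocyte marker mean, a relation chosen before, r was -0.001 for Psat1 and 0.24 for Phgdh. Neither passed (adjusted permutation p = 0.996 and 0.766 over 30 pairs). The part of these marker means in the correlation of the 2 genes was not tested.

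Atf4 varied with Chac1 and with Asns, without passing by both measures. For Atf4 and Chac1 r was 0.53 (permutation p = 0.00346, adjusted 0.0586) and rho 0.63 (permutation p = 0.00141, adjusted 0.0317), and r was 0.52 without the 2 farthest libraries. For Atf4 and Asns r was 0.50 (permutation p = 0.00391, adjusted 0.0586) and rho 0.53 (permutation p = 0.00686, adjusted 0.103), and r was 0.43 without the 2 farthest libraries. Asns and Chac1 had an r of 0.48, which did not pass (permutation p = 0.0259, adjusted 0.233). Chac1 had as high an r with Psat1 (0.48, permutation p = 0.0133, adjusted 0.149) and one of 0.42 with Phgdh (permutation p = 0.0499, adjusted 0.321), 2 genes without the promoter core, and neither passed. Trib3 had an r of 0.45 with Atf4 (adjusted permutation p = 0.321) and -0.09 and -0.01 with Asns and Chac1. For Ddit3 and Atf4 the r was 0.02 (adjusted permutation p = 0.966).

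Asns varied with marker means of other cells and tissues. Its r was -0.75 with the mean of the astrocyte markers (rho -0.70; adjusted permutation p = 0.0066 and 0.0128 over 30 pairs) and -0.68 with that of the olfactory markers (rho -0.65; 0.0066 and 0.0128). Without the 2 libraries farthest from the median of each marker mean the r values were -0.73 and -0.62. With the neuron marker mean, in the family of 20 pairs added after seeing the data, r was 0.65 and rho 0.57. This did not pass (adjusted permutation p = 0.0719 and 0.1), and r was 0.50 without the 2 farthest libraries. Psat1 and Mthfd2 followed the striatal marker mean, with r of 0.65 and 0.60 (rho 0.63 and 0.59; adjusted permutation p = 0.0066 and 0.0227 for r), and 0.51 for both without the 2 farthest libraries. Phgdh passed with the striatal marker mean by rho only (r 0.57 and rho 0.53, adjusted permutation p = 0.0656 and 0.041). The astrocyte marker mean was lower in each HT group than in WT: it was 0.06 ± 0.05 (log2 against all libraries, SD, n = 8) in WT vehicle, -0.0010 ± 0.023 (n = 6) in HT vehicle, -0.01 ± 0.06 (n = 8) in HT mice given fluoxetine and -0.05 ± 0.05 (n = 7) in those given lithium. Its part in the Asns values of the groups was not tested.

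**Figure D4:**
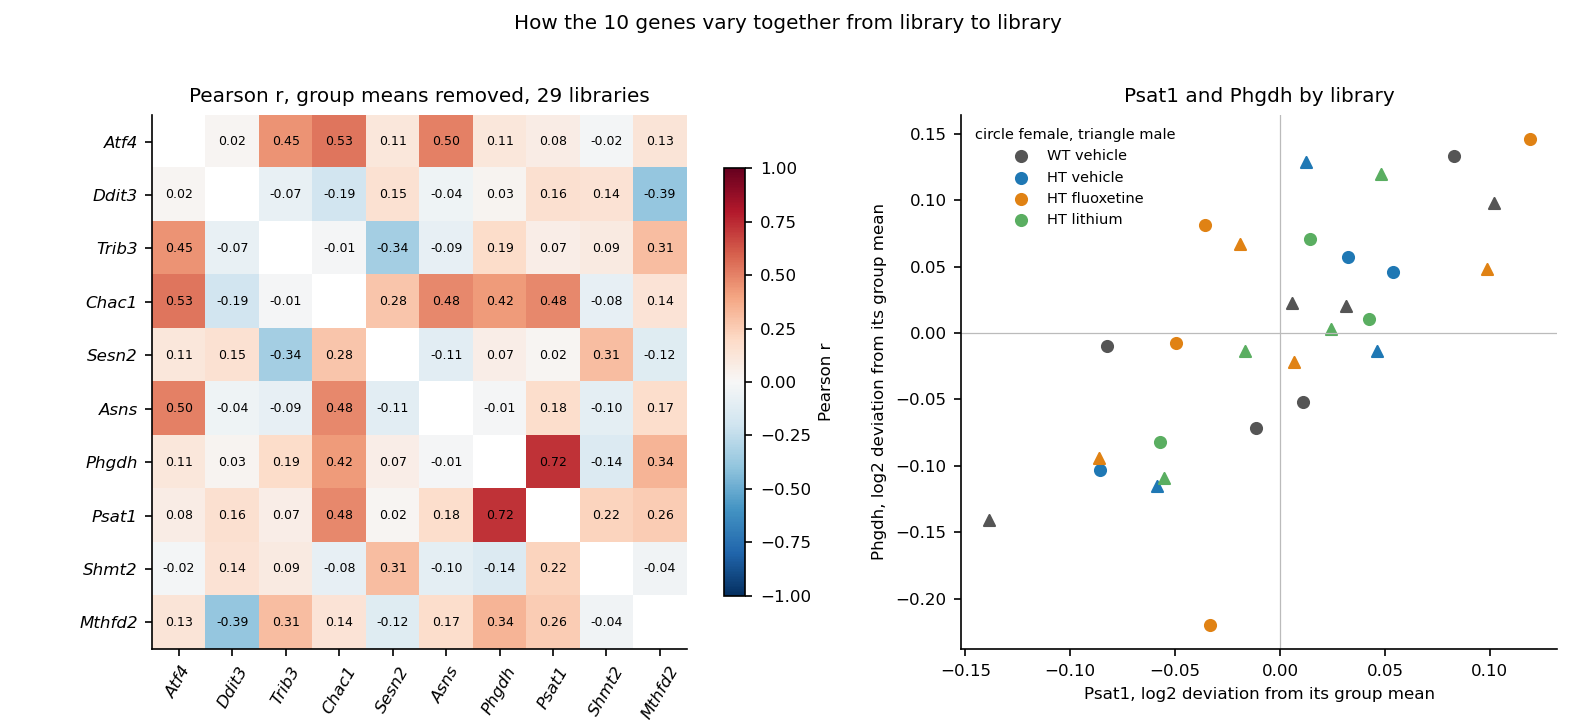
Left, Pearson r between the 10 genes over 29 libraries after removing group means (color scale from -1 to 1); right, log2 deviation of Psat1 (horizontal axis) and Phgdh (vertical axis) from the mean of their group in each library. The darkest cell is the pair Psat1 and Phgdh, at 0.72, and Ddit3 has its lowest r, -0.39, with Mthfd2.

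Over 13827 genes whose mean reached 50, close patterns by Pearson r on the same centred values were described for each member. Atf4 was closest to Cars, the cysteinyl-tRNA synthetase (r = 0.77), and to Znhit1 (0.74), and Ddit3 to Eif2b2, a subunit of the exchange factor for eIF2 (0.70), and to Ergic3 (0.69). Asns had the highest values of all, with the neuronal ubiquitin hydrolase Uchl1 (0.91) and the adaptor subunit Ap1s1 (0.90). Psat1 was closest to Arsg (0.84) and Plekhb1 (0.84), and Phgdh to Serpinb1a (0.80) and Ppfibp2 (0.79). For Chac1 a close gene was Dlat (0.75), and the closest were for Sesn2 Rprd1b (0.73) and Hs3st5 (0.73), and for Shmt2 Lrrc49 (0.70) and Asb7 (0.67). Mthfd2 was closest to Pcdha4 (0.70) and Bivm (0.68), and Trib3, at few reads, to Prpf38a (0.69) and Rasip1 (0.68). These are among the highest of 13827 values for each gene and share library and tissue composition.

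The kinases and phosphatase subunits that set the level of phosphorylated eIF2, and eIF2 and its exchange factor, were also without calls in all 6 comparisons. Of 10 genes for eIF2 kinases, phosphatase subunits and their regulators 0 were called, and 0 of 11 for eIF2, eIF2B and related factors. For HT lithium minus WT vehicle, the smallest p-values in these lists were those of Dnajc3, an inhibitor of the kinase PERK (log2 difference 0.11 ± 0.04, SE, adjusted p = 0.162, limma), Ppp1r15a, the stress-induced phosphatase subunit GADD34 (0.11 ± 0.04, adjusted p = 0.177), and Ppp1r15b (0.08 ± 0.04). Eif5, Eif2b4 and Eif2d came first among the translation factors, at -0.05, 0.07 and -0.04.

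Among 12 basic leucine zipper factors that can pair with ATF4 or act beside it, Cebpd was lower in HT. It averaged 129 ± 9.02 (SD, n = 8) in WT vehicle, 90.4 ± 7.75 (n = 6) in HT vehicle, 88.4 ± 21.2 (n = 8) in HT mice given fluoxetine and 82.9 ± 15.1 (n = 7) in those given lithium. No library of any HT group reached the lowest WT value of 116: the highest HT value was 112. The log2 difference from WT was -0.51 ± 0.11 (SE, adjusted p = 0.0398, limma) in HT vehicle, -0.58 ± 0.10 (adjusted p = 0.00839) in HT mice given fluoxetine and -0.68 ± 0.10 (adjusted p = 7.29e-04) in those given lithium. Jdp2 was 0.21 ± 0.05 higher in HT lithium than in WT (adjusted p = 0.0241), and Cebpb, at 0.26 ± 0.11, was not called (adjusted p = 0.198). No other factor of this list was called in any of the 6 comparisons. Of all tested genes, 0.0447% were called lower for HT vehicle minus WT, 0.0447% for HT fluoxetine minus WT and 0.57% for HT lithium minus WT. No gene at all was called for HT vehicle minus WT without the 10 high-marker libraries, nor for HT fluoxetine minus WT when only these 2 groups were fitted, so Cebpd was not called there.

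Of 32 other reported ATF4 targets in the table, 3 were higher and 1 was lower in HT lithium than in WT vehicle, where 1.33% of all tested genes were called higher and 0.57% lower. The list's median log2 difference was 0.0014, beside -0.0046 for all tested genes. Ddit4, which encodes the mTORC1 inhibitor REDD1 and is also a target of glucocorticoids, was the lower one: its mean was 1535 ± 144 (SD, n = 8) in WT vehicle and 1205 ± 65.6 (n = 7) in HT lithium, with no overlap (lowest WT library 1313, highest lithium library 1292). Its log2 difference was -0.35 ± 0.06 (SE, adjusted p = 0.00357, limma), and in HT fluoxetine minus WT it was -0.37 ± 0.06 (adjusted p = 0.00666). By sex, Ddit4 averaged 1002 ± 96.4 (SD) in HT fluoxetine and 1562 ± 125 in WT females, but 1409 ± 121 and 1508 ± 175 in males. A difference between the sexes was not tested for this comparison. HT vehicle lay between, at 1357 ± 124 (log2 difference from WT -0.18 ± 0.06, SE, adjusted p = 0.232, limma). Trib2, a pseudokinase of the same family as Trib3, was 0.27 ± 0.05 higher in HT lithium (adjusted p = 0.00556), Herpud1, an adaptor for degradation at the endoplasmic reticulum that is induced by other branches of the unfolded protein response too, 0.20 ± 0.04 higher (adjusted p = 0.0133) and Gpt2, a mitochondrial alanine transaminase, 0.17 ± 0.04 higher (adjusted p = 0.0293). For the other 5 comparisons, only Ddit4 in HT fluoxetine minus WT was called from this list.

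Enzymes of the same metabolic steps were mostly without calls. Of 24 serine, glycine and one-carbon enzymes outside the members, Aldh1l1, a folate enzyme of astrocytes, was 0.18 ± 0.03 (log2, SE) higher in HT vehicle than in WT (adjusted p = 0.0212, limma; background 0.162% called higher), and none was called in the other 5 comparisons. Aldh1l1 is also 1 of the 18 astrocyte markers, of which 15 had a negative difference in HT vehicle minus WT (median -0.07) and Gja1 was called lower (-0.19 ± 0.04, adjusted p = 0.0313). In HT lithium minus WT the smallest p-values were those of Mthfd1l (0.25 ± 0.08, adjusted p = 0.0958), Aldh1l2 (-0.21 ± 0.08, adjusted p = 0.164) and Gldc (-0.13 ± 0.06, adjusted p = 0.214). Of 20 cytosolic aminoacyl-tRNA synthetases, Hars was 0.15 ± 0.04 higher in HT lithium than in WT (adjusted p = 0.0303), and Nars (0.11 ± 0.03, adjusted p = 0.0809) and Sars (0.08 ± 0.03, adjusted p = 0.177) were not called. None of 16 regulators of mitochondrial stress and mTORC1 was called in the 6 comparisons over both sexes: Hspd1 came closest, at 0.12 ± 0.04 in HT lithium minus WT (adjusted p = 0.1096).

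Genes of the other 2 branches of the unfolded protein response, which run through ATF6 and XBP1, were called more than once in HT lithium minus WT vehicle. There 7 of 20 were higher and 0 were lower (1.33% and 0.57% of all tested genes), with a median log2 difference of 0.12; for the 10 members the median was 0.02 and 0 were called. Hspa5, the chaperone BiP that senses unfolded protein, averaged 5532 ± 432 (SD, n = 8) in WT vehicle and 6674 ± 589 (n = 7) in HT lithium, a log2 difference of 0.27 ± 0.05 (SE, adjusted p = 0.00242, limma). Sdf2l1, a cofactor in the same chaperone complex, had the largest of these differences, 0.39 ± 0.09 (adjusted p = 0.0184). The disulfide isomerase Pdia4 was 0.29 ± 0.06 higher (adjusted p = 0.00556), the chaperone Hyou1 0.21 ± 0.03 (adjusted p = 0.00127), the secreted factor Manf 0.20 ± 0.04 (adjusted p = 0.0113), Xbp1 itself 0.18 ± 0.04 (adjusted p = 0.0323) and Pdia6 0.15 ± 0.04 (adjusted p = 0.0445). Hyou1 was also called in HT fluoxetine minus WT, at 0.15 ± 0.03 (adjusted p = 0.0433), the 1 gene of this list called in another of the 6 comparisons. The difference between the lists was not tested. Without HT lithium female 3 the calls fell to 4 of 20 in this list and to 2 of 32 among the other ATF4 targets.

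Against HT vehicle the same list had no calls with lithium: 0 of 20 passed and 11 of 20 had an unadjusted p under 0.05, where 11.4% of all tested genes did. By sex, 0 of 20 had an unadjusted p under 0.05 in females (background 4.3%), with a median difference of 0.05, and 10 of 20 in males (background 10%), with a median of 0.13. The female minus male term was negative for 18 of 20, with none called. Xbp1 and Canx shared the smallest adjusted p-value of the list (0.249, limma), at log2 differences of 0.17 ± 0.05 (SE) and 0.14. Pdia4 and Sdf2l1 had larger differences, 0.20 ± 0.06 and 0.18 ± 0.09. The mean of Xbp1 was 1859 ± 138 (SD, n = 7) in HT lithium, 1659 ± 135 (n = 6) in HT vehicle and 1651 ± 91.0 (n = 8) in WT vehicle. The median difference of the list was 0.11 for lithium and 0.04 for fluoxetine against vehicle, and 0.04 for HT vehicle minus WT. The members' medians in these were 0.01, 0.03 and 0.02. Lithium minus vehicle and HT lithium minus WT share the lithium libraries. Markers moved in lithium minus vehicle too, without a call: all 13 olfactory markers (median -1.01) and all 12 immediate early genes (median -0.22) had a negative difference, all 12 oligodendrocyte markers a positive one (median 0.21), and 13 of 18 astrocyte markers a negative one (median -0.03). Their part in the differences of the list was not tested.

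Tissue markers moved with the HT lithium minus WT comparison and are given beside it. Of 18 astrocyte markers 16 had a negative difference (median -0.11), and F3 and Gja1 were called lower. Of 14 neuron markers 11 had a positive difference (median 0.07), and Neurod6 was called higher. All 13 olfactory markers had a negative difference with a median of -1.10, without a call: their mean lay between -2.43 and 0.84 in HT lithium libraries and between -1.59 and 1.77 in WT libraries. Of 13 endothelial and mural markers Vtn, Cldn5 and Pdgfrb were called lower. Of 12 immediate early genes Btg2 and Fos were called lower. Oligodendrocyte, microglia and striatal markers and mitochondrially encoded genes had no call. With the striatal and olfactory marker means as covariates, 5 of 20 ATF6 and XBP1 genes and 5 of 32 other ATF4 targets were called. The count over all genes in that fit is not given here. It ran from 16 to 573 for this comparison over the settings other than leaving out 1 library. Without the 10 libraries high in these markers, 0 of 20 and 0 of 32 were called, in a fit of 19 libraries that called 16 genes in all. The part of astrocyte, neuron and vessel markers in these gene differences was not tested.

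**Figure D5:**
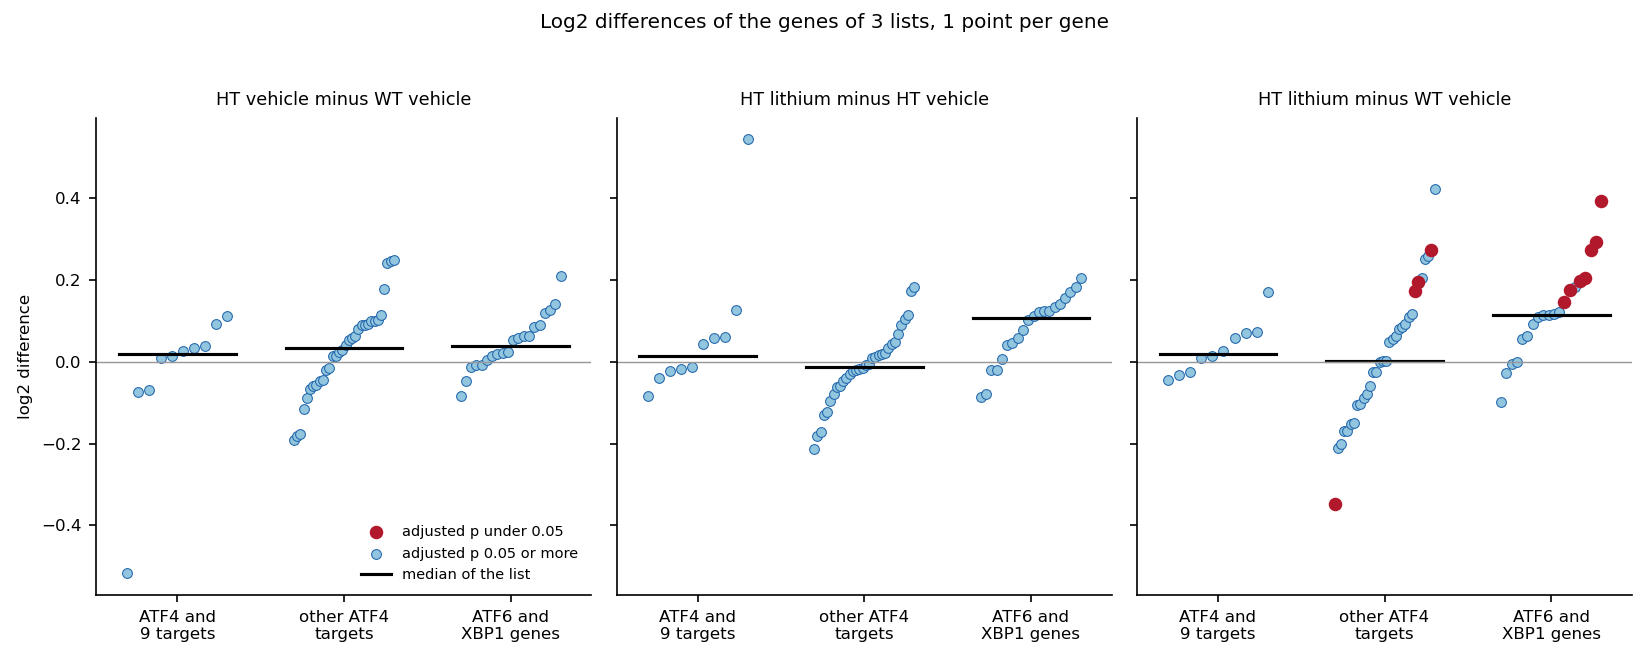
Log2 difference (vertical axis) of each gene of the 3 lists (Atf4 and its 9 targets, 32 other ATF4 targets, 20 genes of the ATF6 and XBP1 branches) in 3 comparisons; red points passed at an adjusted p under 0.05, and black lines are medians. Red points appear only for HT lithium minus WT vehicle, 4 among the other ATF4 targets and 7 among the ATF6 and XBP1 genes, and the lone low and high points of the members are Trib3, at -0.52 and 0.54.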

How the data were processed

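The values in the deposited table are a signal: read counts that the authors scaled by library size factors. Per the submitters' processing notes, Salmon 0.11.2, R 3.6.0, DESeq2 1.19.11 and build GRCm38 were used, with no role or order named. The annotation release, the gene filter and the strand setting are not given in the sources used here. All values (100%) were multiples of the worth of 1 read to within 0.0001 reads, which gave back 22.81 M to 31.71 M reads per library. Of 18240 gene identifiers, 18227 matched the GENCODE annotation of GRCm38.

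The difference between groups was tested with limma 3.58.1 on log2(value + 1), with 8 group means (genotype and treatment by sex), 29 libraries and 21 residual degrees of freedom, two-sided, for the 17881 genes that reached 10 in 3 or more libraries. The pseudocount understates differences of low genes. A difference over both sexes averages the difference in females and that in males. P-values were adjusted by Benjamini-Hochberg over all tested genes, with a threshold of 0.05. As alternatives, the reads so recovered were tested with DESeq2 1.42.0 and edgeR 4.0.16. The limma and edgeR code was tested on simulated data, and the DESeq2 code was not. Correlations used 100000 permutations within groups. The oligodendrocyte and neuron marker family, the list counts under other settings and the correlations without the high-marker libraries were chosen after seeing the data. The members and gene lists were chosen with earlier results of these data known. Within each list of context genes the called genes were named for the 6 comparisons, and otherwise the smallest p-values for HT lithium minus WT vehicle only. A few genes are not reported here.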

Additional observations from a re-analysis of the deposited data

Results flagged for a closer look

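Atf4 in HT fluoxetine male 4 lay far from the other libraries of its group. Its normalised read count was 3615, and the next highest of the 8 HT fluoxetine libraries was 3285. The gap was 0.604 of the group's range, above the critical value of 0.526 for 8 libraries. It was the 1 case among 40 checks of the 10 genes in the 4 groups, and chance flags about 1 in 20 groups.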

How the results depend on the processing

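For the 10 genes in the 6 comparisons, 2360 of 2454 values under 41 other settings kept direction and call, 93 reversed in 23 of 60 results and 1 newly passed (Ddit3, given above). No member was called in any other setting. Quantile normalisation reversed Atf4 (-0.0007) for HT minus WT vehicle, Mthfd2 (0.0198) for lithium minus vehicle, and Atf4 (-0.0002), Chac1 (0.0251), Phgdh (-0.0044) and Sesn2 (0.0099) for HT fluoxetine minus WT. Marker covariates reversed Ddit3 (0.0047), Psat1 (0.0144), Phgdh (0.0217) and Shmt2 (0.0042) for lithium minus fluoxetine, and Phgdh (-0.0304) and Sesn2 (0.0011) for HT fluoxetine minus WT. Leaving out the high-marker libraries reversed Chac1 (0.0067) for genotype, Sesn2 (0.0010) for lithium minus vehicle, Ddit3 (0.0728), Psat1 (0.0124) and Shmt2 (0.0100) for lithium minus fluoxetine, Chac1 (0.0319) and Phgdh (-0.0344) for HT fluoxetine minus WT, and Trib3 (-0.1071), Shmt2 (0.0030) and Mthfd2 (-0.0512) for HT lithium minus WT. That setting also left 0 calls in both the ATF6 and XBP1 list and the other ATF4 targets, and 0 correlated pairs (Psat1 and Phgdh at 0.619). The cause was not tested.

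Leaving out 1 library at a time moved the members called for HT lithium minus WT from 0 to 1, the ATF6 and XBP1 calls from 4 to 9 and the calls among other ATF4 targets from 2 to 6. Ranges that crossed 0 were as follows. For genotype Atf4 ran from -0.0248 to 0.0309, Phgdh from -0.0177 to 0.0433 and Mthfd2 from -0.0122 to 0.0872. For fluoxetine minus vehicle Atf4 ran from -0.0144 to 0.0432 and Phgdh from -0.0384 to 0.0269. For lithium minus vehicle Asns ran from -0.0398 to 0.0156 and Mthfd2 from -0.0742 to 0.0313. For lithium minus fluoxetine Ddit3 ran from -0.0418 to 0.0291, Trib3 from -0.3054 to 0.0417, Psat1 from -0.0276 to 0.0066, Shmt2 from -0.0368 to 0.0070 and Sesn2 from -0.0152 to 0.0354. For HT fluoxetine minus WT Atf4 ran from -0.0046 to 0.0347, Chac1 from -0.0337 to 0.0202, Phgdh from -0.0193 to 0.0415 and Sesn2 from -0.0284 to 0.0135. For HT lithium minus WT Trib3 ran from -0.1112 to 0.2359, Mthfd2 from -0.0349 to 0.0574 and Sesn2 from -0.0202 to 0.0290.

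With the replicate block, 0 of 10 members were called in each comparison, 10 of 20 ATF6 and XBP1 genes and 6 of 32 other ATF4 targets passed for HT lithium minus WT, and Phgdh (-0.0122 for genotype, 0.0171 for fluoxetine minus vehicle) and Atf4 (-0.0136 for fluoxetine minus vehicle) reversed. Libraries with the same number correlated between -0.264 and 0.311 in their deviations, and in no comparison was every pair over 0.1, so the numbers were not taken as pairs. Between lithium and fluoxetine every same-number pair was positive, with a mean of 0.216 in females and 0.138 in males. For different numbers these means were -0.072 and -0.046. The block and the pairs used the numbers in the titles, which differ from those in the library names for the HT vehicle females. The labels do not say whether a number marks a litter or a batch. Over all genes the calls ran from 0 to 219 for genotype, 0 to 32 for lithium minus vehicle, 0 to 95 for HT fluoxetine minus WT and 16 to 573 for HT lithium minus WT in the other settings. Leaving out 1 library gave 2 to 176, 0 to 0, 10 to 98 and 85 to 722. For most settings, the block among them, the list counts were not set beside the all-gene count of the same fit. Changes in the list counts were thus not separated from changes in calls over all genes. A filter at 50 removed Trib3, whose 3 to 18 reads limit what its values can show.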
